A study of Saccharomyces cerevisiae with 279 samples.

Results

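Sodium azide blocks the mitochondrial respiratory chain and ATP synthase, lowers cellular ATP and is a classic trigger of stress granules in budding yeast. In such granules mRNAs gather with translation factors and RNA-binding proteins into clusters that are heavy enough to be spun down. Sed-seq measures how far each mRNA sediments, whether or not granules are present. A lysate is centrifuged, and the RNA of the unspun lysate (Total), the supernatant (Sup) and the pellet is sequenced. pSup is the fraction of a transcript found in the supernatant. A low pSup alone does not show stress granules. The paper reports that mRNAs often condense without visible granules, and that some do so in unstressed cells. Described here are the libraries labelled 0.8% azide and the mock libraries of the same experiment, which were chosen by their labels and make up 12 of the 279 libraries of the series. They come from 2 azide and 2 mock lysates, each with a Total, a Sup and a Pellet library. All 4 cultures were strain BY4741, a haploid MATa laboratory strain of Saccharomyces cerevisiae with deletions in HIS3, LEU2, MET15 (MET17) and URA3, kept at 30°C in synthetic complete medium with dextrose. Azide at 0.8% (weight per volume) was added for 30 min from a stock in water, with the medium adjusted to pH 6.8, and mock cultures received water. The mock labels of this experiment carry no pH.

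Total libraries held between 22214776 and 34645963 estimated counts, supernatant libraries between 21936256 and 32855894, and pellet libraries between 25520311 and 29553746. Of 5906 nuclear protein-coding transcripts, 5677 had enough counts for a test of abundance and 5070 had a deposited length and enough counts for a test of sedimentation. The strain labels were checked against marker genes. The a-factor gene MFA2 had between 2916 and 4968 counts per Total library, the alpha-factor gene MFALPHA1 had between 2 and 11, and LEU2, MET17 and URA3 had 0 counts in every Total library. A further alpha-cell gene, STE3, was not near 0. It had up to 204 counts per Total library, against at least 6140 for the a-cell gene STE2. STE3 was also higher in azide, by 0.68 on the log2 scale. HIS3 kept between 943 and 1759 counts. The deposited mixing ratios, which scale a fraction to its Total library, were unlike in 1 mock lysate: the supernatant ratio was 1.26 in mock 2 and between 0.543 and 0.570 in the other 3 lysates. These ratios multiply counts that are not scaled for depth, so they also carry library size. Mock 2 had 34645963 Total and 21936256 supernatant counts, while in the other 3 lysates the supernatant library was the larger. By the methods of the study, the 2 lysates of a group are biological replicates that were grown separately. The p-values rest on 2 cultures a side, and the tests (edgeR and limma) draw the spread of each transcript towards that of the others. A reported SE can thus be smaller than the 2 cultures a side alone would give.

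Azide moved nearly all mRNAs from the supernatant towards the pellet, and on the log-odds scale short transcripts moved the most. Median pSup was 0.813 and 0.790 in the 2 mock lysates and 0.663 and 0.592 in the 2 azide lysates. On the natural-log odds scale the median change was −0.71 in lysates numbered 1 and −0.91 in lysates numbered 2. Of the 5070 mRNAs, 4930 (97.2%) had a lower pSup in azide in both pairs, and 4632 (91.4%) had both azide lysates below both mock lysates. Pairs here and below are lysates with the same replicate number, a descriptive matching that the main tests did not use. limma called 4152 mRNAs lower (81.9% of those tested) and 3 higher (0.0592%) at an adjusted p under 0.05, as 2-sided tests on log-odds pSup. All transcripts of a lysate shift together when its mixing ratio shifts, so these calls are not independent of one another. They also use a spread shared over transcripts, so they do not rest on the lysates alone. An exact permutation test on the 4 lysate medians could not have gone below p = 0.333. The number called lower was 1521 without mock replicate 1 and 1909 without mock replicate 2, and it was 8 when fractions were scaled by the NanoLuc spike-in RNA in place of the mixing ratios, with a median change of −1.31.

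The NanoLuc RNA, added in the same mass to every sample, gave a reading of mRNA per fraction that used no mixing ratio. In the pellet there were 1827 and 1609 mRNA counts per NanoLuc count in the mock lysates and 2368 and 3790 in the azide lysates. In the supernatant the same ratio was 8312 and 5998 in mock and 4658 and 2910 in azide. The Total ratio was 7946 and 6562 in mock and 5228 and 4488 in azide. The groups did not overlap in any of the 3 fractions: mRNA per spike was higher in the azide pellets and lower in the azide supernatants and Total samples. Fewer cells and less mRNA per cell cannot be told apart in these ratios.

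Long mRNAs sedimented more than short ones in every lysate, but the range over lengths narrowed in azide. Across transcripts, length and pSup had a Spearman rho of −0.838 and −0.786 in mock and of −0.740 and −0.739 in azide (n = 5070 transcripts, which share lysates and are not replicates). Transcripts under 750 nt (n = 676) had a median pSup of 0.897 and 0.894 in mock and of 0.769 and 0.721 in azide. Their median log-odds change was −1.04, and 95% of them were called lower. On the pSup scale itself the fall was not largest in this class: transcripts of 1000 to 1500 nt (n = 1194) went from 0.839 and 0.824 to 0.701 and 0.628. Transcripts of 5000 nt or more (n = 87) had a median pSup of 0.549 and 0.505 in mock and of 0.462 and 0.397 in azide. Their median change was −0.42, and 32.2% were called lower. ΔSed, the fall in log-odds divided by the standard deviation of length-centred log-odds in the mock lysate, had a median of 2.26 and 2.25 in the 2 replicates and correlated with length at rho = −0.42.

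**Figure D1:**
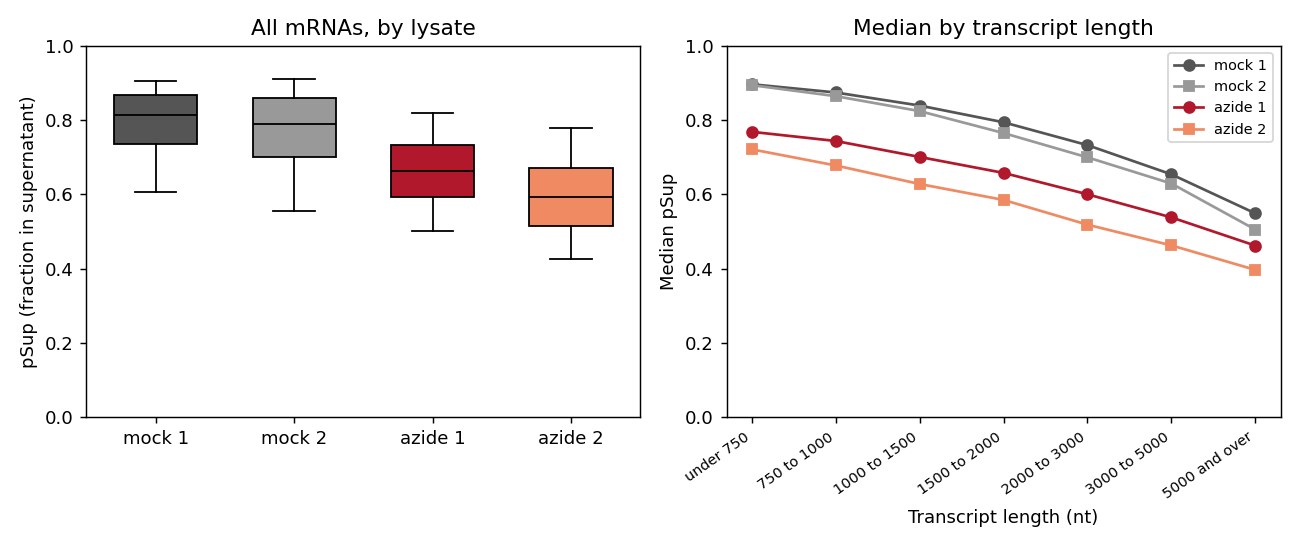
pSup (fraction in the supernatant, 0 to 1) of 5070 mRNAs in each lysate at left, as boxes from the 25th to the 75th percentile with the median as a line and whiskers at the 5th and 95th percentiles, and the median pSup by transcript length (nt) at right, 1 line per lysate. Both azide lysates lie below both mock lysates at every length, and the gap is smallest in the longest class, at 0.549 and 0.505 in mock against 0.462 and 0.397 in azide.

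The 3 mRNAs called higher in the supernatant, against the general fall, were TCB3, SPI1 and BSC1. TCB3, on chromosome XIII from 124730 to 129367 (R64-3-1 annotation), encodes a tricalbin that tethers the endoplasmic reticulum to the plasma membrane. Its pSup was 0.392 and 0.355 in mock lysates and 0.538 and 0.511 in azide, with no overlap between groups, a log-odds change of 0.62 ± 0.28 (SE) and an adjusted p of 0.0362 (limma). SPI1, on chromosome V from 468370 to 468816, encodes a cell wall protein known for weak acid stress. Its pSup was 0.834 and 0.701 in mock lysates and 0.890 and 0.800 in azide, so the groups overlapped, and it was higher in azide within both numbered pairs, with a change of 0.51 ± 0.22 and an adjusted p of 0.0303 (limma). BSC1, on chromosome IV from 384601 to 385587, is an mRNA known for bypass of its stop codon. Its pSup was 0.440 and 0.229 in mock lysates and 0.596 and 0.400 in azide, again overlapping and higher within both pairs, with a change of 0.72 ± 0.30 and an adjusted p of 0.0210 (limma). Without mock replicate 2, or with the NanoLuc scaling, 0 mRNAs were called higher, and without azide replicate 2 there were 12.

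Among the 10 largest falls with at least 100 counts in every library of a group were transcripts for nucleolar, mitochondrial and translation proteins. BIL2, on chromosome VII from 465043 to 465435, fell from a pSup of 0.882 and 0.949 in mock to 0.441 and 0.406 in azide, a log-odds change of −2.77. It had 12 and 19 counts in the mock Total libraries, so its mock pSup rests on few reads. NOP1, on chromosome IV from 427364 to 428347, encodes fibrillarin, the methyltransferase that modifies ribosomal RNA. Its pSup was 0.890 and 0.880 in mock lysates and 0.551 and 0.48 in azide, a change of −1.98. BUD23, a methyltransferase of 18S ribosomal RNA, went from 0.883 and 0.864 to 0.588 and 0.436, a change of −1.89. TIF3, which encodes initiation factor eIF4B, went from 0.858 and 0.887 to 0.544 and 0.542, a change of −1.76. In each of these 4 transcripts both azide lysates lay below 0.6 while both mock lysates lay above 0.85. CNB1 (calcineurin subunit B), TIM9 (import into mitochondria), ATP19 (ATP synthase), ASG7, SNN1 and RPL41A made up the rest, with changes between −2.08 and −1.78. RPL41A encodes the same protein as RPL41B, and how kallisto divided their reads is uncertain.

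Since length alone set much of pSup, each transcript was next compared with transcripts of similar length in the same lysate. The length-centred log-odds pSup had its change called higher in 266 mRNAs (5.25% of 5070) and lower in 302 (5.96%) at an adjusted p under 0.05 (limma, 2-sided). A higher value means that a transcript escaped sedimentation relative to others of its length, and eSed gives the same difference in units of the mock standard deviation. In a joint fit with the 0.5% azide lysates, which shares the spread of 8 lysates, 660 were called higher and 729 lower. Scores of the 2 replicates correlated at rho = 0.794 across transcripts. These calls depended on 1 lysate: nearly all were lost when mock replicate 2 was left out. All 568 transcripts kept their sign without that lysate. They were selected in a fit that held the remaining lysates too, so the kept sign is no independent support. SOR2, a sorbitol dehydrogenase gene whose reads may be split with the near-identical SOR1, had a pSup of 0.960, 0.883 and 0.639 in 3 lysates and of 2.7e-09 in azide 1. Without SOR2 the calls were 286 higher and 317 lower, and without both SOR2 and mock replicate 2 they were 14 and 15, alternatives chosen after the data were seen.

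The 10 largest rises relative to length were of mixed kinds and included mRNAs for the cell wall (SPI1, GAS2) and the endoplasmic reticulum (HAC1, TCB3). SPI1 led with a change of 1.45 ± 0.24 (SE) and an adjusted p of 0.0381 (limma). HAC1, on chromosome VI from 75179 to 76147, encodes the transcription factor of the unfolded protein response, and its unspliced mRNA is held from translation by its intron. HAC1 had a pSup of 0.715 and 0.663 in mock and of 0.759 and 0.674 in azide, with a log-odds change that did not pass the test and a length-centred change of 1.06 ± 0.12 and an adjusted p of 0.0377 (limma). PHM8, a nucleotidase gene on chromosome V from 225889 to 226854, had a pSup of 0.837 and 0.778 in mock and of 0.855 and 0.804 in azide, and its change was 1.07. STP4 (a zinc finger protein) went from 0.664 and 0.498 to 0.729 and 0.585. GAS2, a glucan-remodelling enzyme of the spore wall, went from 0.454 and 0.381 to 0.520 and 0.414. In each of these transcripts pSup was higher in azide within both numbered pairs, though mock and azide values overlapped. TMA10, RAD34, RGS2, POP6 and TCB3 completed the 10, with length-centred changes between 0.93 and 1.02.

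The 10 largest falls relative to length were BIL2 (−1.75), NOP1 (−1.07), ASG7 (−1.02), BUD23 (−1.02), TIF3 (−0.92), CNB1 (−0.87), YHM2 (−0.85), MIR1 (−0.84), RBG1 (−0.84) and ARF2 (−0.82). MIR1 encodes the mitochondrial phosphate carrier and YHM2 a mitochondrial citrate carrier. MIR1 pSup was 0.899 and 0.902 in mock lysates and 0.648 and 0.584 in azide. ARF2 shares reads with its close paralog ARF1, so its value is less certain. TUB2, the beta-tubulin gene, which is among the transcripts the paper names, had a length-centred change of −0.82 and a pSup of 0.871 and 0.894 in mock and of 0.622 and 0.590 in azide.

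**Figure D2:**
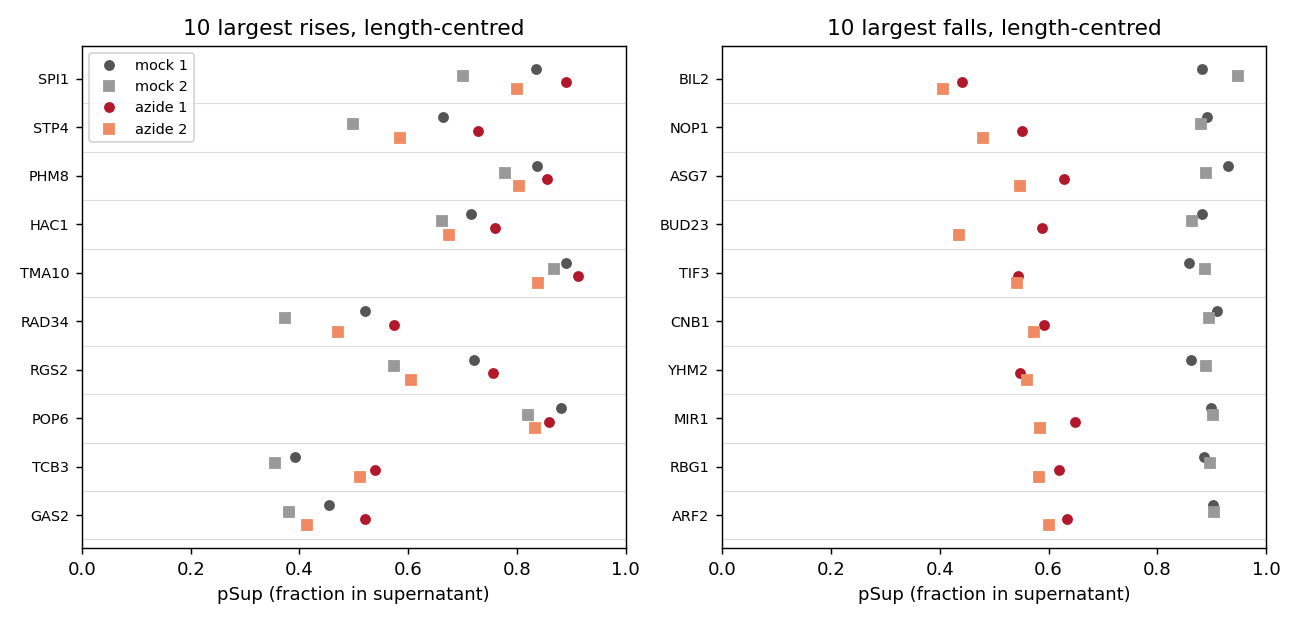
pSup (fraction in the supernatant, x axis) in each of the 4 lysates for the 10 largest rises (left) and the 10 largest falls (right) in length-centred log-odds pSup, 1 point per lysate. Among the rises, TCB3 goes from 0.392 and 0.355 to 0.538 and 0.511 and HAC1 from 0.715 and 0.663 to 0.759 and 0.674, and the falls drop to below 0.65, as NOP1 from 0.890 and 0.880 to 0.551 and 0.48.

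Several gene lists had more falls than rises relative to length, where 5.96% of all 5070 mRNAs fell and 5.25% rose. Of 48 ribosome biogenesis mRNAs, 12 fell, 1 (IMP3) rose and 35 did not pass, with a median change of −0.35 against 0.00 over all 5070. NOP4 (−0.80), SDA1 (−0.72) and GAR1 (−0.69), which act in assembly of the large subunit and in pseudouridylation, fell beside NOP1. NOP4 pSup was 0.801 and 0.824 in mock lysates and 0.496 and 0.492 in azide. Of 26 mRNAs for translation initiation and stress granule factors, 6 fell and 0 rose, among them NGR1 (−0.58), FUN12 (−0.57, initiation factor eIF5B) and SUI3 (−0.55, a subunit of eIF2), with a median of −0.23. Of 37 amino acid synthesis mRNAs, 8 fell and 1 rose, led by TRP5 (−0.80) and MET6 (−0.65), with a median of −0.20. Of 35 proteasome mRNAs, 4 fell and 1 rose, with a median of −0.23. Of 13 mRNAs for decapping and P body factors, 3 fell and 0 rose: PAT1 (−0.71), CCR4 (−0.58) and XRN1 (−0.50).

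Lists for iron uptake, the endoplasmic reticulum and its membrane tethers had rises and no falls relative to length. Over all 5070 mRNAs 5.25% rose, 5.96% fell and 50.1% had an eSed above 0. At that share of falls, lists this short would hold few or none. Of 22 iron uptake mRNAs, 7 rose relative to length and 0 fell, with a median change of 0.33, and 21 of 22 had an eSed above 0. FET3, the multicopper oxidase of iron uptake, had a pSup of 0.639 and 0.539 in mock and of 0.602 and 0.551 in azide and a length-centred change of 0.61. FRE3, a ferric reductase, had 0.630 and 0.576 in mock and 0.639 and 0.544 in azide, also with a change of 0.61. Of 15 mRNAs for folding in the endoplasmic reticulum and the unfolded protein response, 3 rose (HAC1, IRE1 at 0.78 and SIL1 at 0.46) and 0 fell, with a median of 0.33 and 13 of 15 above 0 in eSed. IRE1, the sensor of unfolded proteins in the endoplasmic reticulum, had a pSup of 0.496 and 0.390 in mock and of 0.557 and 0.463 in azide. All 3 tricalbins rose: TCB3 (0.93), TCB1 (0.74) and TCB2 (0.67), of 6 tether mRNAs tested. TCB1 pSup was 0.475 and 0.443 in mock lysates and 0.525 and 0.485 in azide, with no overlap, and TCB2 pSup was 0.442 and 0.427 in mock lysates and 0.477 and 0.475 in azide.

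Most ribosomal protein and membrane stress messages did not pass the length-centred test. Over all mRNAs 5.25% were called higher, 5.96% were called lower, and 50.1% had an eSed above 0. Of 137 cytosolic ribosomal protein mRNAs, 12 rose, 0 fell and 125 did not pass, with a median of 0.12, and 75.2% had an eSed above 0. Near-identical pairs of ribosomal protein genes share reads, which makes single values uncertain. RPL25, a single-copy gene for a protein of the large subunit, had a pSup of 0.910 and 0.915 in mock and of 0.896 and 0.875 in azide and a change of 0.72. RPL39 had a change of 0.70. Of 18 membrane and weak acid stress genes, 1 rose (SPI1) and 0 fell, though 17 had an eSed above 0. Hsf1 targets gave 6 rises and 5 falls of 47, and Msn2/4 targets gave 10 rises and 9 falls of 192. All counts of length-centred calls depend on mock replicate 2, without which 4 mRNAs in all were called higher and 1 lower.

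Transcripts that sedimented unusually strongly or weakly for their length in untreated cells came closer to the rest in azide. Here the baseline was the length-centred log-odds pSup in the mock lysates of the separate 0.5% azide experiment, which share no sample with these lysates. That baseline correlated at rho = 0.861 and 0.896 with the same measure in the 2 mock lysates here and at 0.381 and 0.452 with that in the azide lysates (n = 4976 transcripts). The correlation of baseline with the length-centred change was −0.531. In the decile of lowest baseline (n = 498) the median change was 0.38, and 22.9% rose and 0 fell. In the decile of highest baseline (n = 498) the median change was −0.30, and 1 rose and 22.3% fell. The length-centred spread itself was 0.312 and 0.405 (SD) in mock and 0.419 and 0.326 in azide, so the spread over all transcripts did not separate the groups, and the azide 1 value includes SOR2.

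Azide also changed mRNA abundance, and large rises were more common than large falls. Of 5677 mRNAs in Total libraries, 1212 rose (21.3%) and 1086 fell (19.1%) at an adjusted p under 0.05 (edgeR quasi-likelihood test, 2-sided). Of these, 399 rises and 23 falls were at least 2-fold. The count of rises was 807 without mock replicate 2, and the count of falls was 619 without mock replicate 1 and 641 without mock replicate 2. Total libraries were scaled to each other (TMM), so the changes are relative to the other mRNAs, and mRNA per NanoLuc count in Total was lower in both azide lysates, as given above.

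FDH1, the formate dehydrogenase gene on chromosome XV from 1071793 to 1072923, showed the largest rise among named transcripts. It had 0.0929 and 0.0519 TPM (abundance scaled by transcript length and library total) in mock and 9.83 and 11.5 TPM in azide, a log2 change of 7.29 ± 0.27 (SE) and an adjusted p of 5.29e-06 (edgeR). It rested on 6 counts over both mock Total libraries, and the ratio of counts was 166, with an exact 95% counting interval of 75.9 to 454. SPO19, a sporulation gene on chromosome XVI from 304387 to 305058, had 0 and 0.120 TPM in mock and 9.50 and 12.4 TPM in azide. With 3 counts in mock its ratio was 171, with an interval of 58 to 830.4. These intervals cover counting error only. Both genes were close to silent in mock and plainly present in both azide lysates.

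HSP30, on chromosome III from 156109 to 157107, encodes a plasma membrane stress protein that dampens the proton pump Pma1. It had 1.23 and 5.27 TPM in mock and 195 and 131 TPM in azide, a log2 change of 5.67 ± 0.44 and an adjusted p of 0.000134 (edgeR). The 2 mock lysates thus differed from each other, by far less than mock from azide. RSB1, a lipid transporter gene, had 0.134 and 0.298 TPM in mock and 6.91 and 7.72 TPM in azide. YOR365C (5.86), HMS1 (5.47), YOR268C (5.41), RRT5 (5.38), YER053C-A (5.33) and YMR230W-A (5.07) were the other large rises, as log2 changes. YER053C-A was the most abundant of them, with 19.1 and 32.4 TPM in mock and 1507 and 931 TPM in azide. YOR365C, YOR268C and YMR230W-A had only 10, 8 and 9 counts over both mock Total libraries, so the size of their rises is uncertain. The 95% counting intervals of their ratios of counts were 32.8 to 127.7, 22.6 to 105.4 and 18.1 to 77.1.

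The largest falls were small beside these rises, and 6 of the 10 encode proteins of the mitochondrion. COX10, an enzyme of heme a synthesis on chromosome XVI from 224353 to 225741, had 10.4 and 10.9 TPM in mock and 3.07 and 3.37 TPM in azide, a log2 change of −1.58 ± 0.12 and an adjusted p of 0.000123 (edgeR). SSC1, the Hsp70 of the mitochondrial matrix, had 733 and 828 TPM in mock and 272 and 334 TPM in azide (−1.23). ILV5, an enzyme of branched-chain amino acid synthesis, had 1331 and 1363 TPM in mock and 420 and 506 TPM in azide (−1.39). IFM1 (−1.38, mitochondrial initiation factor), MRPL19 (−1.35, mitochondrial ribosomal protein) and YIA6 (−1.20, mitochondrial NAD carrier) fell as well. HO (−1.60), PHM6 (−1.53), HHF2 (−1.35, a histone H4 gene) and LRG1 (−1.29) were the others. In all 10 both azide lysates lay below both mock lysates.

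**Figure D3:**
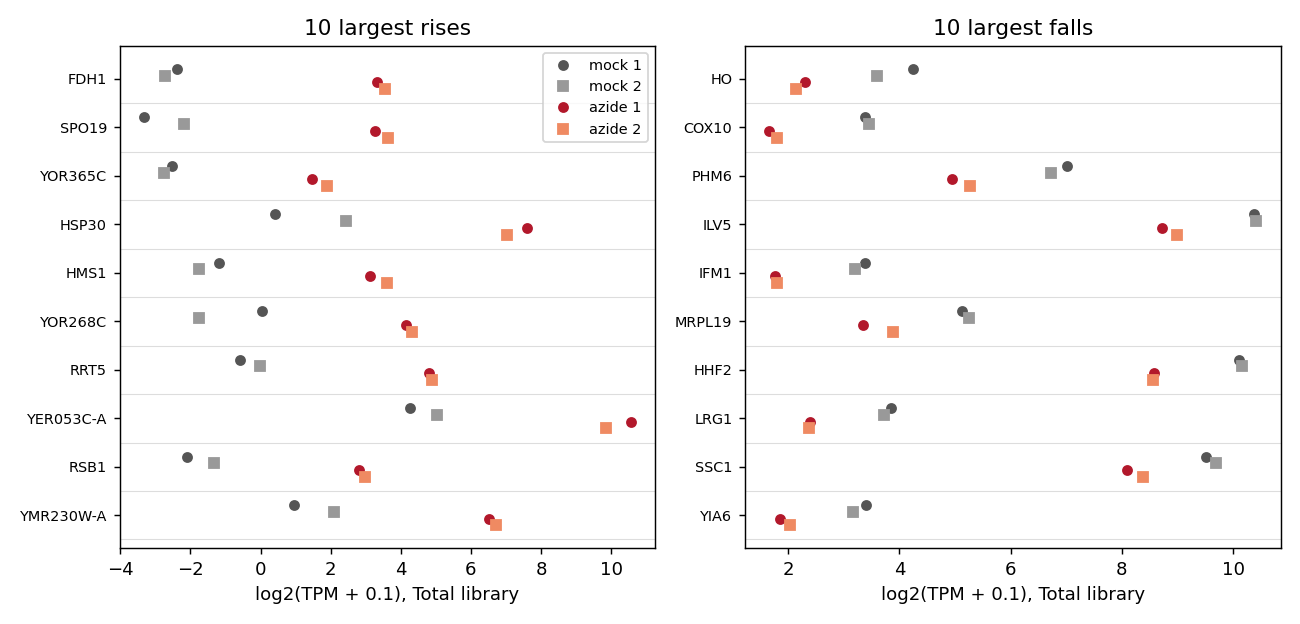
Abundance in the 4 Total libraries as log2(TPM + 0.1) for the 10 largest rises (left) and 10 largest falls (right), 1 point per lysate, with separate x ranges. For each transcript both azide points lie to 1 side of both mock points. FDH1 goes from 0.0929 and 0.0519 TPM to 9.83 and 11.5 TPM, while COX10 goes from 10.4 and 10.9 TPM to 3.07 and 3.37 TPM.

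By gene list, sugar uptake and storage carbohydrate genes had rises and no falls, where 21.3% of all mRNAs rose and 19.1% fell. Of 15 genes of hexose transport and glucose sensing tested, 13 rose and 0 fell, with a median log2 change of 1.13 against 0.00 over all mRNAs. HXT4, a hexose transporter, had 1.23 and 0.843 TPM in mock and 7.22 and 6.40 TPM in azide (log2 change 2.90 ± 0.19, adjusted p 5.53e-05, edgeR). HXT1, the low-affinity transporter, had 56.3 and 86.6 TPM in mock and 175 and 178 TPM in azide (1.44). HXT6 rose by 3.31 and HXT7 by 2.31, and these near-identical genes share reads. Of 18 trehalose and glycogen genes, 12 rose and 0 fell, with a median of 0.62, led by GSY1 (2.07, glycogen synthase), GAC1 (1.76), GLG1 (1.50, glycogenin) and TSL1 (1.47, a subunit of the trehalose synthase complex).

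Chaperone genes moved in both directions, with shares set against 21.3% rises and 19.1% falls over all mRNAs. Of 26 heat shock proteins and chaperones, 9 rose, 6 fell and 11 did not pass. HSP42, a small heat shock protein, had 41.2 and 55.3 TPM in mock and 412 and 438 TPM in azide (3.28 ± 0.14, adjusted p 1.06e-05, edgeR). HSP78 (2.18, a disaggregase of mitochondria), HSP26 (2.00), BTN2 (1.83), SSA4 (1.62) and the cytosolic disaggregase HSP104 (1.15) rose too. SSC1 (−1.23), HSP60 (−0.91) and HSP10 (−0.44), which fold proteins in the mitochondrial matrix, fell, as did the cytosolic co-chaperone YDJ1 (−0.39). Of 47 Hsf1 targets 19 rose and 9 fell (median 0.11), and of 195 Msn2/4 targets 77 rose and 15 fell (median 0.20). Of 18 membrane and weak acid stress genes, 8 rose and 0 fell, among them TPO2 (4.00, a polyamine exporter), SPI1 (3.76) and RTC3 (2.03).

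Phosphate genes were lower, and the other lists were mixed, again beside 21.3% rises and 19.1% falls over all mRNAs. Of 12 phosphate genes, 11 fell and 0 rose, with a median of −0.58. PHO84, the high-affinity phosphate transporter, had 825 and 789 TPM in mock and 394 and 437 TPM in azide (−0.81 ± 0.07, adjusted p 0.00022, edgeR) and PHM6 had a log2 change of −1.53. Of 137 cytosolic ribosomal protein genes 43 rose and 10 fell (median 0.09), and of 48 ribosome biogenesis genes 10 rose and 17 fell (median −0.06). Of 38 nuclear genes of the respiratory chain and ATP synthase, which azide inhibits, 5 rose and 6 fell with a median of 0.01. CYC7, the cytochrome c isoform known for expression at low oxygen, rose by 2.86, and SDH1, a subunit of succinate dehydrogenase, fell by 0.70 on the log2 scale. Proteasome genes gave 2 rises and 8 falls of 35. RPN4, the transcription factor of proteasome genes, rose by 1.24, with 36.5 and 40.3 TPM in mock and 82.8 and 82.3 TPM in azide.

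Polysome-seq cultures given the same azide concentration offered an abundance measure that shared no sample with the lysates above. In their Total libraries 1314 mRNAs rose (23.2%) and 1179 fell (20.8%) of 5667 (edgeR). Of the 1192 rises in the Sed-seq lysates tested in both, 883 (74.1%) were called as rises there, which is 67.5% of the 1309 rises of the Polysome-seq cultures. Across transcripts the changes correlated with r = 0.865 and rho = 0.778 (n = 5645). HSP30 rose by 4.40 there, HSP42 by 2.07 and FDH1 by 4.86, while COX10 fell by 1.34 on the log2 scale. Storage carbohydrate genes differed more, with a median of 0.62 in the Sed-seq lysates and −0.03 in the Polysome-seq cultures, where TSL1 had a log2 change of −0.03. Phosphate genes gave 4 falls and 1 rise of 12 there (median −0.12), against 11 falls and 0 rises in the Sed-seq lysates. Msn2/4 targets gave 52 rises and 52 falls of 195 there (median −0.03), against 77 and 15, so the excess of rises was not seen in those cultures. Membrane and weak acid stress genes gave 6 rises and 4 falls of 18 there (median 0.01), against 8 and 0. Hexose transport genes gave 9 rises and 1 fall of 15 there (median 0.64). These differences between cultures were not tested.

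Transcripts induced by azide were spread widely in how far they escaped sedimentation. They were picked as the 100 largest rises in the Polysome-seq cultures among mRNAs with an eSed. Their ranking used none of these lysates. Having an eSed did, since it required at least 20 counts over supernatant and pellet in each lysate, which leaves out mRNAs near silent in mock. Their median eSed was 0.43, at 0.33 and 0.39 in the 2 replicates, and 56 of 100 lay above 0, against 50.1% of all mRNAs. The median was 0.16 over the 1102 called rises of those cultures that had an eSed. It was −0.19 over the 15 transcripts with an eSed that were at least 8-fold higher there. In those cultures 79 mRNAs were called at least 8-fold higher, so most of that class had no eSed. The quartiles were −0.89 and 1.29, against −0.59 and 0.59 over all 5066 mRNAs. An eSed above 2 was found for 9 of them (9%, against 1.66% of all) and one below −2 for 7 (7%, against 1.07%), and 8 were called higher and 8 lower relative to length. SPI1 (4.05), HSP30 (3.38) and PHM8 (3.02) were at the top, and BIL2 (−4.79), YPT53 (−3.65), CTR3 (−3.44) and UBC11 (−3.26) at the bottom. CTR3, a copper transporter gene, had a pSup of 0.911 and 0.877 in mock and of 0.508 and 0.475 in azide. HSP30 had 0.845 and 0.608 in mock and 0.818 and 0.797 in azide. Induced transcripts had few reads before treatment, with a median of 273.5 mock counts over supernatant and pellet against 5215.5 for all, and the part of low counts in their wider spread was not tested.

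**Figure D4:**
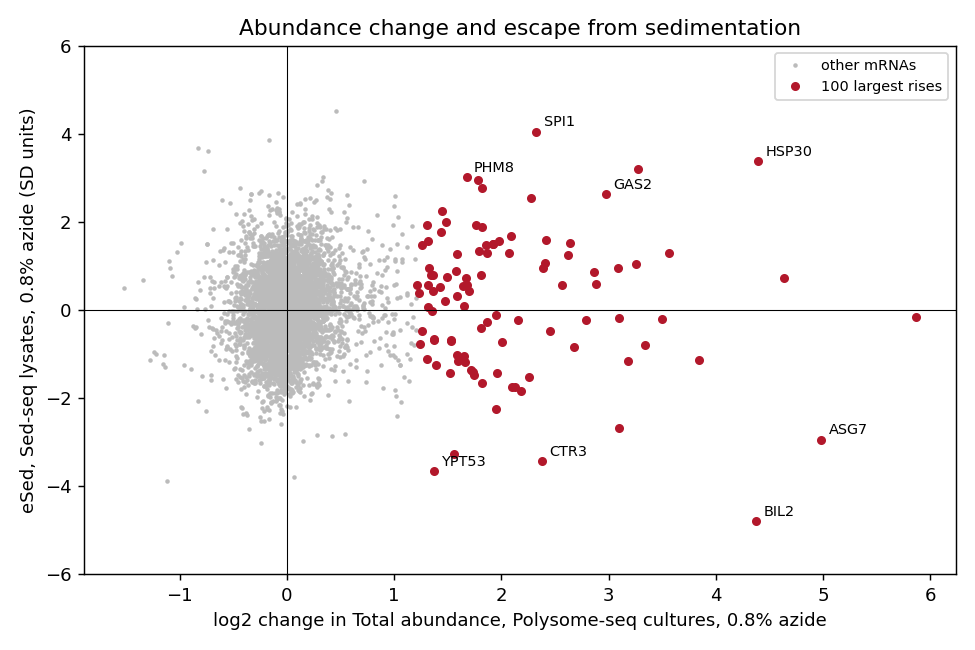
eSed in the 0.8% azide Sed-seq lysates (y axis, units of the mock standard deviation, above 0 for transcripts that sedimented less than others of their length) against the log2 change in Total abundance in separate Polysome-seq cultures at 0.8% azide (x axis), for 5066 mRNAs. The 100 largest rises (red) spread to both sides of 0, from SPI1 at 4.05 to BIL2 at −4.79, with a median of 0.43; SOR2, at −35.8, lies outside the y range.

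Ribosome association in the Polysome-seq cultures, the change in bound over Total reads, was higher in 485 mRNAs (8.49%) and lower in 438 (7.67%) of 5711 (edgeR interaction). The count of rises was 266 without mock replicate 1, 244 without mock replicate 2, 297 without azide replicate 1 and 297 without azide replicate 2, and that of falls was 287 without mock replicate 2. Its correlation with the length-centred change in sedimentation was rho = 0.309 (n = 5069 transcripts). HAC1 had a change of 1.08 and PHM8 of 0.83, and NOP1 and BUD23 had changes of −0.46 and −0.51. HSP30, whose length-centred change of 1.27 had an adjusted p of 0.0557 (limma), had 1.78. Cytosolic ribosomal protein mRNAs went another way: 76.6% of 137 were lower in ribosome association and 3 were higher, while 12 rose and 0 fell in length-centred pSup.

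The 0.5% azide experiment, also in BY4741 for 30 min at 30°C, differed in dose and in library preparation, with another kit, UMIs (molecular identifiers) and fewer reads, so that dose and experiment cannot be told apart. Median pSup there was 0.853 and 0.866 in mock and 0.787 and 0.799 in azide. The length-centred changes of the 2 experiments correlated with r = 0.667 and rho = 0.730 (n = 4976 transcripts). A limma interaction test called 0 mRNAs higher and 0 lower (0% each) in the difference between them, with 440 at an unadjusted p under 0.05. With 2 lysates a side this does not show that the responses were alike. In log-odds, NOP1 changed by −1.98 at 0.8% and by −1.31 at 0.5%. For abundance the edgeR interaction called 1666 changes higher (29.3%) and 1054 lower (18.5%) of 5693 at 0.8% than at 0.5%. Cytosolic ribosomal protein genes had a median log2 change of 0.09 at 0.8% and −0.59 at 0.5%, with 132 of 137 called in the interaction as higher and 0 as lower. Ribosome biogenesis genes had −0.06 and −0.85 (42 of 48 higher, 0 lower), and phosphate genes −0.58 and −1.87 (11 of 12 higher, 0 lower). Msn2/4 targets had 0.20 and 0.70, with 15 of 196 higher and 81 lower.

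**Figure D5:**
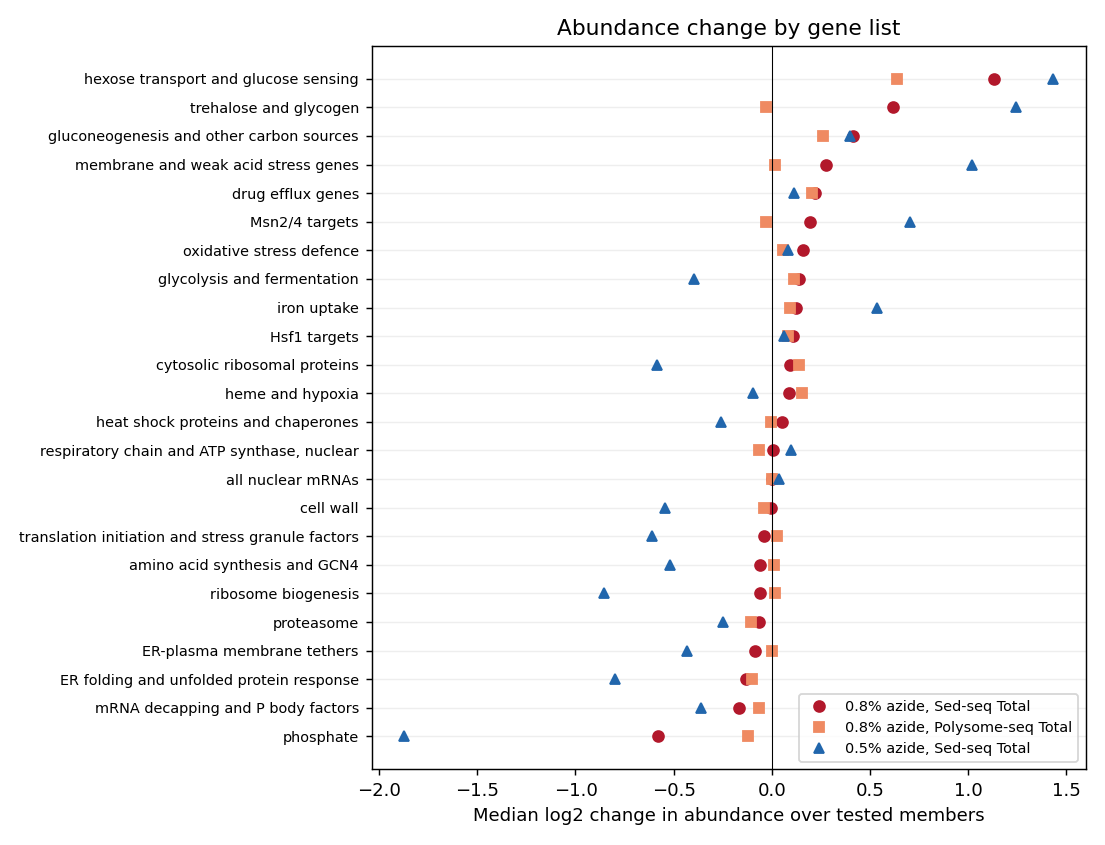
Median log2 change in abundance (x axis) over the tested members of each gene list (rows) in 0.8% azide Sed-seq Total libraries, in Total libraries of the 0.8% azide Polysome-seq cultures and in 0.5% azide Sed-seq Total libraries. Hexose transport genes stand highest at 0.8% (1.13) and phosphate genes lowest (−0.58), and ribosomal protein genes are at 0.09 in 0.8% Sed-seq and at −0.59 in the 0.5% experiment.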

How the data were processed

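The authors prepared the 0.8% azide libraries from rRNA-depleted RNA with a stranded kit and paired-end reads without UMIs, trimmed them with Trim Galore 0.6.10 and quantified them with kallisto 0.48.0. They deposited estimated counts and TPM per transcript, Stan-fitted mixing ratios (unit: other), and pSup, the fraction in supernatant, which the authors computed from counts and mixing ratios. Recomputed pSup differed from the deposited value by at most 3.33e-16. The 0.5% azide libraries were deduplicated by UMI with UMI-tools 1.1.4. Fold changes and sedimentation scores of the authors, held in the same tables, were not used.

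Groups came from the labels. Estimated counts were rounded and tested with edgeR 4.0.16 (TMM, filterByExpr) in R 4.3.3, and log-odds pSup with limma 3.58.1 (trend), where supernatant plus pellet held at least 20 counts in each lysate. All p-values were 2-sided with Benjamini-Hochberg adjustment over all transcripts tested. Length-centred values subtract the running mean over 0.02 of the range of log length, and 89 transcripts had under 20 others or themselves in that window. eSed and ΔSed matched lysates by replicate number. Figures were drawn with Matplotlib 3.10.9. The scripts were tested on simulated data.

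Transcripts were named if they were among the 10 strongest rises or 10 strongest falls of a comparison (adjusted p under 0.05, 1 sign in both pairs, at least 100 counts in all libraries of 1 of the groups), if the paper names them, or if they were among up to 4 per list and direction. The comparison, its members and the lists were chosen with earlier results of these data known. DESeq2 1.42.0, other filters, scalings and lengths, a replicate block and each lysate left out were tried as alternatives.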

Additional observations from a re-analysis of the deposited data

Results flagged for a closer look

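The results below were picked out because the response at 0.8% azide differed from that at 0.5% by an edgeR interaction test. Dose and experiment, with its own kit and UMI handling, cannot be told apart in these values. Abundance changes were higher at 0.8% for 1666 mRNAs and lower for 1054. The cause of each difference was not tested.

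Among the 10 largest positive differences were genes of phosphate uptake, sugar uptake and ribosome assembly. PHO84 had a log2 change of −0.81 at 0.8% and of −3.52 at 0.5%, a difference of 2.79. NSR1, a nucleolar protein of ribosome assembly, had −0.66 and −2.73, a difference of 2.15, and PCL1, a G1 cyclin, had −0.88 and −3.06, a difference of 2.26. HXT7 had 2.31 and −0.17, a difference of 2.56, and it shares reads with HXT6. DAN1, a cell wall gene known for expression without oxygen, had 2.17 and −0.73, a difference of 2.98. YOR365C (3.58), EDS1 (2.66) and HMS1 (2.55) rose in both experiments and more at 0.8%. YHR218W (10.3) and YRF1-6 (2.57) are subtelomeric genes with near-identical copies, so their difference depends on how reads were divided.

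The 10 largest negative differences were changes that were higher at 0.5%. ALD3, an aldehyde dehydrogenase gene, had 0.70 at 0.8% and 3.68 at 0.5%, a difference of −2.90. HSP12, a membrane stress protein, had 0.16 and 2.35, a difference of −2.10, and CIN5, a stress transcription factor, had 2.56 and 5.16, a difference of −2.51. The others were PHM7 (−1.98), RHO5 (−1.87), MIN10 (−1.83), YBL086C (−1.78), COA2 (−1.74), YIG1 (−1.72) and YJR154W (−1.72).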

How the results depend on the processing

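All 20 transcripts named for abundance kept their call and direction under each alternative in which they were tested, and 6 of them had too few counts for the filter of at least 10 counts in every library. With NanoLuc scaling, 0 mRNAs were called higher and 8 lower in log-odds pSup, the median change was −1.31 and 11 of 13 named transcripts lost their call, while the length-centred values cannot move under a constant scaling of a lysate. Fitted together with the 0.5% lysates, 660 mRNAs were called higher and 729 lower in length-centred log-odds. Same-numbered lysates deviated together here (r = 0.222 in Total and 0.216 in length-centred log-odds), but with 2 lysates a group and no shared day or batch in the labels the numbers were not taken as pairing the lysates. With the replicate block, 14 mRNAs were called higher in log-odds, 953 higher and 1020 lower in length-centred log-odds, and 1432 higher and 1365 lower in abundance. The median eSed of induced transcripts was 0.32 for transcripts with at least 100 counts and 0.16 for all called rises with an eSed. With each lysate or library left out, abundance gave 807 to 1167 rises and 619 to 1004 falls, log-odds gave 0 to 12 higher and 1521 to 4638 lower, length-centred log-odds gave 4 to 366 higher and 1 to 414 lower, its difference between doses gave 0 to 1 higher and 0 lower, ribosome association gave 244 to 297 higher and 287 to 312 lower, the median log-odds change was −0.96 to −0.66, and the median eSed 0.33 to 0.39. Without mock replicate 2, 19 of the 20 transcripts named for length-centred log-odds lost their call and none changed direction. Without both SOR2 and mock replicate 2, 14 were called higher and 15 lower. The cause of these changes was not tested. With 2 lysates a side, and pSup from few reads in rare transcripts, small differences were not detectable.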

Other observations

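Genes for mitochondrial ribosomal proteins, a group added after the data were seen, fell more often than they rose in azide. Of 72 genes tested in the Sed-seq Total libraries, 34 fell and 1 rose, with a median log2 change of −0.34, against falls in 19.1% of all mRNAs. In the Polysome-seq cultures at the same concentration 43 fell and 1 rose, with a median of −0.26. In the 0.5% experiment 27 fell and 17 rose, with a median of −0.02. Relative to length, 5 of the 72 sedimented more and 1 less.

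Transcripts made inside mitochondria differed between the 2 pairs of lysates. Over the 6 of them with at least 100 counts, median pSup was 0.463 and 0.435 in mock lysates and 0.416 and 0.501 in azide, so the groups overlapped. In the first pair 5 of the 6 were lower in azide, as OLI1 (0.546 to 0.434), ATP6 (0.525 to 0.444), COX2 (0.429 to 0.362), COX3 (0.498 to 0.451) and COB (0.341 to 0.331), and COX1 went from 0.379 to 0.398. In the second pair all 6 were higher in azide, from 0.272 to 0.397 for COX1, 0.440 to 0.461 for COX2, 0.517 to 0.540 for COX3, 0.290 to 0.342 for COB, 0.429 to 0.844 for ATP6 and 0.612 to 0.697 for OLI1.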
